A study of Mus musculus with 9 samples.

Results

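Complement components and receptors form a set of 9 genes, chosen by name from the 24346 gene symbols of the series. The set holds the chains of C1q (C1qa, C1qb, C1qc), the cascade proteins C2, C3, factor B (Cfb) and properdin (Cfp), and the anaphylatoxin receptors C3ar1 and C5ar1. All 9 symbols were found, and all 9 passed the filter on low values, a minimum FPKM of 1 that 3 or more of the 9 samples had to reach. C2 was near that floor. RNA sequencing was performed on macrophages sorted from the lungs of C57BL/6 mice at postnatal week 10, all female by the study's methods. Lewis lung carcinoma (LLC) cells, a lung cancer line derived from the same strain and here expressing the red fluorescent protein tdTomato, were injected in Matrigel into the left lung, and vehicle was given to the controls. There were 3 groups of 3 samples. Ctrl-AM were alveolar macrophages (AMs) of control mice, Tumor-AM were AMs of tumor-bearing mice, and Tumor-macrophage were the tumor-associated macrophages (TAMs) of tumor-bearing mice. Cells of every group were CD45+ and autofluorescent. By the study's description, AMs were Siglec-F+, F4/80+, CD11c+ and CD11b- and TAMs were Siglec-F-, F4/80+ and CD11b+, and which of these markers set the sort gates of the sequenced samples was not stated. No TAM population was taken from control mice, and control and tumor-bearing mice were bred separately, so that tumor and breeding cannot be told apart. The lungs were not perfused before digestion with collagenase and dispase.

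Complement is a cascade of plasma proteins that marks particles for uptake, recruits leukocytes and lyses membranes. C1q, a bundle of A, B and C chains, recognises bound antibody and dying cells and starts the classical pathway, in which C4 and C2 form the enzyme that cleaves C3. In the alternative pathway, factor B forms the C3-cleaving enzyme with C3 itself, and properdin stabilises it. Cleavage releases the small peptides C3a and C5a, which act on myeloid cells through the receptors C3ar1 and C5ar1. The liver makes most circulating complement, whereas C1q and properdin come largely from macrophages and other leukocytes. In the lung, AMs are the resident phagocytes of the airspace.

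The genes lie on 5 chromosomes of the mouse genome build GRCm38, the assembly also called mm10. C1qb (chr4:136880129-136886187), C1qc (chr4:136889804-136893065) and C1qa (chr4:136895917-136898803) follow each other on chromosome 4. Cfb (chr17:34856374-34862518) and C2 (chr17:34862604-34898265) are neighbours on chromosome 17, in the same direction, and C3 (chr17:57203970-57228136) lies farther along it. Cfp is at chrX:20925454-20931555, C3ar1 at chr6:122847138-122856161 and C5ar1 at chr7:16246743-16259540. All 9 are on the minus strand. A read-through gene model of the annotation, Gm20547, covers 79.5% of the exon bases of Cfb and 42.8% of those of C2. Gm20547 is not among the symbols of the files, and how reads shared with it were assigned was not stated, so the values of Cfb and C2 carry that uncertainty. For the other 7 members, no window of 75 bases, the read length, of the longest transcript occurred in a transcript of another gene.

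Upstream sequences are shown for C1qb, C1qc and C3ar1, which differed most between TAMs and AMs among the members in the reference table. The sequences are the 250 bases before the start of the gene in RefSeq (GRCm38.p6), and 6 of the 9 members (these 3, C3, Cfp and C5ar1) matched that table. The start in RefSeq is not always that of the GENCODE model behind the gene positions above. Of the windows, 151 bases of that of C1qc, 4 of that of C3ar1 and 202 of that of C5ar1 lie inside the GENCODE gene. The sequences are written 5′ to 3′ along the direction of transcription, so that the last base is at -1, and all are from the minus strand. Capitals mark matches on either strand to any of 6 short motifs, which are spelled out after the sequences.
C1qb (chr4:136886201-136886450): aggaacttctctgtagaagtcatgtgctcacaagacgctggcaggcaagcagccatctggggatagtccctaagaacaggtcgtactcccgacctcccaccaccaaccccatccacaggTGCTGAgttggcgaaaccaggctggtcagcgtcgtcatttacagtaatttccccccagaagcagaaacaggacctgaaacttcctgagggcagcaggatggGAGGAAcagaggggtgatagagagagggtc
C1qc (chr4:136892915-136893164): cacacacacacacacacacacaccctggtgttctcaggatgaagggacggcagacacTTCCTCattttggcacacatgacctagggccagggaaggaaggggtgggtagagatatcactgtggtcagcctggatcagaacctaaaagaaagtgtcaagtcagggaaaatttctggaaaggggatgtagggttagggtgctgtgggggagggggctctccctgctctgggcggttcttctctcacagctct
C3ar1 (chr6:122856158-122856407): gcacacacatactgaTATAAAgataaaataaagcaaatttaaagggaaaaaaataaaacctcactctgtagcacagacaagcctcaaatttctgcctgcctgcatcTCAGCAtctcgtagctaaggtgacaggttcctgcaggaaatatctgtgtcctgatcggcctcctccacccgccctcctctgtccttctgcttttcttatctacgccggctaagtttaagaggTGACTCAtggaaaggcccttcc

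PU.1 is the Ets factor of the myeloid lineage, and its core motif, searched as GAGGAA, was found at -30 to -25 of C1qb and, on the opposite strand, at -193 to -188 of C1qc. The core is common, being present in 23.3% of 32817 mouse promoter windows of this length. The half-site of the Maf recognition element, TGCTGA, was found at -131 to -126 of C1qb and, on the opposite strand, at -144 to -139 of C3ar1, and it occurs in 16.1% of the windows. C3ar1 also had a match to the AP-1 motif TGANTCA at -22 to -16, present in 6.75% of the windows, and a TATAAA at -235 to -230, a motif in 12.4%. Among the members whose sequences are not shown, C3 (-182 to -177) and C5ar1 (-17 to -12) each had 1 half-MARE match, and C5ar1 had a match to GAAANNGAA, a motif of interferon regulatory factors, on the opposite strand at -66 to -58, found in 7.12% of the windows. Both matches of C5ar1 lie inside its GENCODE gene. The STAT motif TTCNNNGAA, present in 7.01% of all windows, was not found in the 6. None of the matches in the 6 windows overlap. A match is a description of the letters and not a measured binding site.

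Expression is given as FPKM, a read count scaled to transcript length and to the mapped reads of the sample, which allows levels of different genes to be compared. The steps between low values gave an estimated depth of 11100000 to 14000000 reads per sample, so that an FPKM of 1 on 1 kb of transcript is worth 11.1 to 14.0 reads, with counting error only. Log2 changes are differences of log2(FPKM + 1) with their standard errors (SE) from limma, and adjusted p-values (Benjamini-Hochberg over 10686 genes, two-sided, threshold 0.05) come from that fit. The pseudocount of 1 understates the change of low genes. Errors of FPKM are standard deviations (SD, n = 3). Tumor-AM exceeded Ctrl-AM in 760 of the genes tested and lay below it in 340, a split that became 607 to 446 after quantile normalization and 475 to 824 after rescaling to TPM. Against Ctrl-AM, 2960 genes were higher and 2900 lower in Tumor-macrophage, which became 2130 to 4409 after rescaling to TPM. Rescaling to TPM moved the median change of all genes to -0.109 for Tumor-AM against Ctrl-AM, -0.0846 for Tumor-macrophage against Tumor-AM and -0.222 for Tumor-macrophage against Ctrl-AM, from values within 0.02 of 0. The labels were checked against marker genes. Summed FPKM of the 7 AM markers was 21660 to 38750 in AM samples and 182 to 490 in Tumor-macrophage samples, and that of 4 TAM markers (Ccr2, Cx3cr1, Tgfb3, Ly6c2) was 149 to 193.5 in Tumor-macrophage and 6.58 to 14.3 in AM samples. The 4 fibroblast markers summed to 2.85 to 5.89 in Ctrl-AM, 7.84 to 49.6 in Tumor-AM and 6.11 to 9.47 in Tumor-macrophage, so that every Tumor-AM sample lay above every Ctrl-AM sample and Tumor-AM 3 was the highest. Of these markers, Col3a1 rose from Ctrl-AM to Tumor-AM (log2 change 1.99 ± 0.481, limma adjusted p = 0.0272), Dcn differed by 1.58 ± 0.483 (limma adjusted p = 0.0666), and Col1a1 and Pdgfra were below the filter. The AM groups overlapped for Col1a1 (mean FPKM 0.558 in Tumor-AM and 0.579 in Ctrl-AM) and for Pdgfra (0.632 and 0.188). None of these AM, TAM and fibroblast markers was at 0 in all samples. Sums of B cell, dendritic cell, lung epithelium and eosinophil markers were lower in every Tumor-AM sample than in any Ctrl-AM sample. B cell markers summed to 10.19 to 12.7 in Ctrl-AM, 2.59 to 5.86 in Tumor-AM and 16.85 to 35.5 in Tumor-macrophage. Dendritic cell markers summed to 6.36 to 9.72, 2.74 to 4.35 and 10.65 to 22.8 in the same order. The part of RNA of these other cell types in the changes was not tested. In sorted bulk samples, a change in the share of cells that express a gene and a change in RNA per cell cannot be told apart.

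In TAMs the C1q genes were among the most abundant transcripts, and in AMs they were low but higher in the tumor-bearing lung. By mean FPKM, C1qb ranked 12, C1qc 16 and C1qa 33 of all genes in Tumor-macrophage. In Ctrl-AM, the same genes ranked 4880, 6644 and 8369. The C1q genes together made up 1.72% to 1.80% of all FPKM in Tumor-macrophage samples, 0.00771% to 0.0157% in Tumor-AM and 0.00251% to 0.00326% in Ctrl-AM.

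C1qa, the A chain, had FPKM of 1.21, 3.18 and 3.43 in the Ctrl-AM samples, of 8.21, 7.39 and 13.8 in the Tumor-AM samples and of 2232, 2206 and 2075 in the Tumor-macrophage samples. The groups did not overlap, and the lowest Ctrl-AM value stood for an estimated 12 reads. C1qb, the B chain, had FPKM of 9.06, 13.4 and 10.9 in the Ctrl-AM samples, of 37.5, 35.6 and 69.9 in the Tumor-AM samples and of 7051, 6789 and 6806 in the Tumor-macrophage samples. C1qc, the C chain, had FPKM of 6.25, 4.98 and 5.32 in the Ctrl-AM samples, of 18.6, 13.5 and 30.02 in the Tumor-AM samples and of 4559, 4429 and 4609 in the Tumor-macrophage samples. For each chain the groups were fully separated, and Tumor-AM 3 was the highest of the AM samples.

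**Figure D1:**
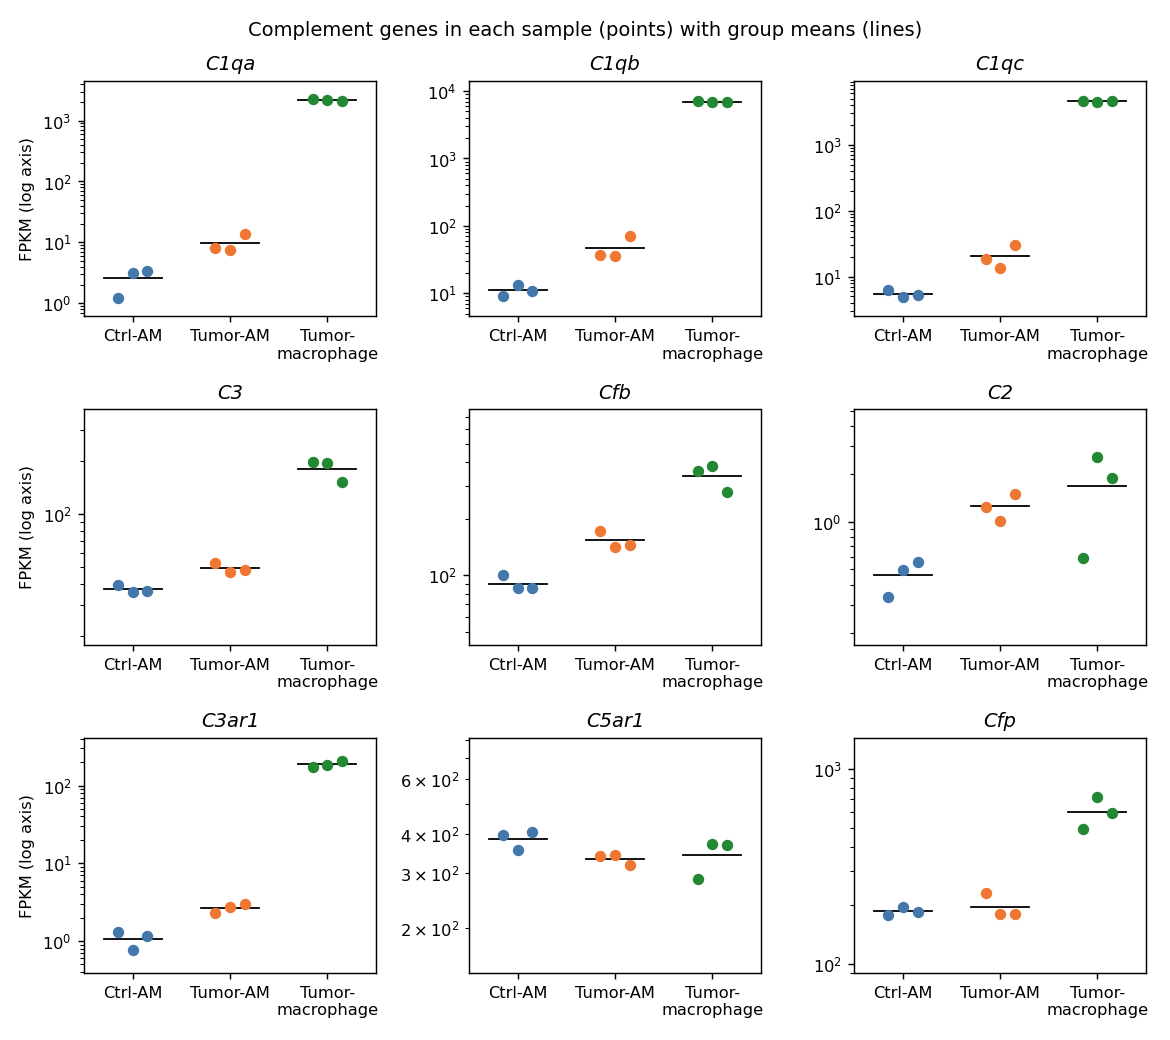
FPKM of the 9 complement genes in each sample, on log axes that differ between panels, with points for samples in replicate order and lines for group means (n = 3). C1qa, C1qb, C1qc and C3ar1 sit in 3 steps from Ctrl-AM to Tumor-AM to Tumor-macrophage, C3, Cfb and Cfp are highest in Tumor-macrophage, and C5ar1 stays between 287 and 405 in all 9 samples.

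Between the AM groups, mean FPKM of C1qb was 47.6 ± 19.3 (SD, n = 3) in Tumor-AM and 11.1 ± 2.16 in Ctrl-AM, a ratio of 4.28 (log2 change 1.95 ± 0.220, limma adjusted p = 6.49e-04). The ratio was 3.76 for C1qa (log2 change 1.60 ± 0.264, limma adjusted p = 0.0044) and 3.75 for C1qc (1.67 ± 0.214, limma adjusted p = 0.00134). All 3 chains rose, and each stayed past the threshold in all 17 other settings. The fibroblast marker sum was higher in every Tumor-AM sample than in any Ctrl-AM sample, though Col1a1 and Pdgfra overlapped. The part of fibroblast RNA in these and the other changes between the AM groups was not tested. Each sample was also left out in turn. Tumor-AM 3 held the highest C1q values and the highest fibroblast sum. Leaving it out does not test the part of fibroblast RNA, since the sums of Tumor-AM 1 and Tumor-AM 2 also exceeded every Ctrl-AM sum. Without Tumor-AM 3 the changes were 1.35 for C1qa (limma adjusted p = 0.0145), 1.64 for C1qb (3.51e-04) and 1.38 for C1qc (7.11e-04). The ranges over all settings were 1.28 to 1.94, 1.64 to 2.12 and 1.38 to 1.93. Over those settings the adjusted p ran from 0.00382 to 0.0211 for C1qa, from 3.51e-04 to 0.00568 for C1qb and from 2.64e-04 to 0.00874 for C1qc.

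Between TAMs and AMs of tumor-bearing mice, C1qa was 222 times higher by mean FPKM, C1qb 144 times and C1qc 219 times. The log2 changes were 7.70 ± 0.264 (SE) for C1qa, 7.21 ± 0.220 for C1qb and 7.78 ± 0.214 for C1qc, with limma adjusted p of 4.01e-09, 2.02e-09 and 8.97e-10. Against Ctrl-AM the ratios were 832, 619 and 822, in the same order. Within each of these comparisons, no other member was separated by as large a ratio.

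The AM samples also held low levels of TAM marker RNA, which moved in the same direction. As a percent of the mean FPKM of Tumor-macrophage, Ctrl-AM reached 0.120 for C1qa, 0.162 for C1qb and 0.122 for C1qc, and Tumor-AM reached 0.451, 0.692 and 0.457. The gain of Tumor-AM over Ctrl-AM was therefore 0.331, 0.531 and 0.335 percentage points. Of the TAM markers, Ccr2 gained 6.78 points, Cx3cr1 0.233, Tgfb3 2.27 and Ly6c2 4.58. In the fit, Ccr2 (log2 change 0.97 ± 0.187, limma adjusted p = 0.00965) and Ly6c2 (0.50 ± 0.0939, limma adjusted p = 0.00867) were higher in Tumor-AM, whereas Cx3cr1 (0.14 ± 0.214) and Tgfb3 (0.24 ± 0.184) did not pass the threshold. The summed level of the 4 markers was 6.58 to 8.35 in Ctrl-AM and 11.7 to 14.3 in Tumor-AM, with no marker at 0. The part of TAM RNA in the C1q values of AM samples was not tested.

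**Figure D2:**
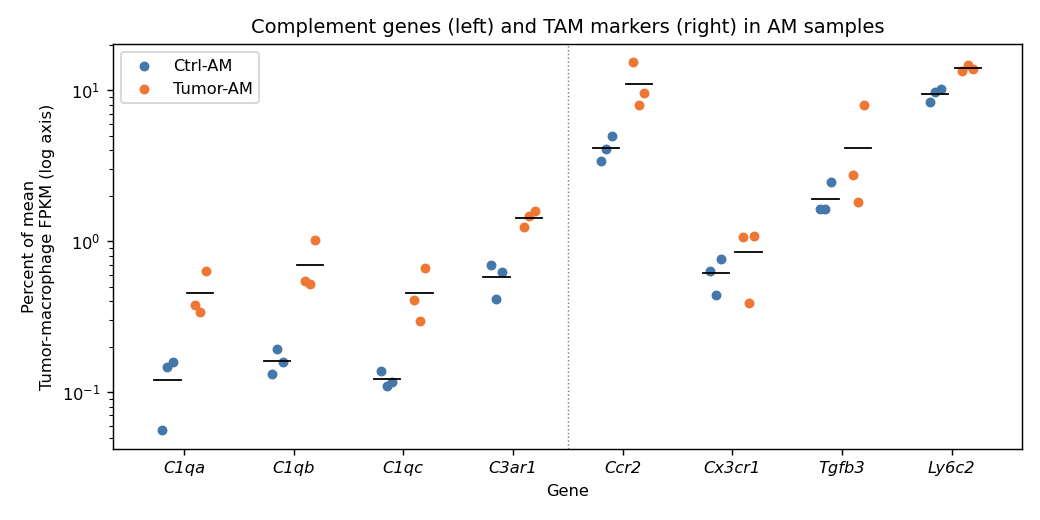
FPKM in each AM sample as a percent of the mean FPKM of Tumor-macrophage (log axis), for C1qa, C1qb, C1qc and C3ar1 on the left and the TAM markers Ccr2, Cx3cr1, Tgfb3 and Ly6c2 on the right, with lines for group means (n = 3). The C1q genes lie near or below 1% in every AM sample, Ccr2 and Ly6c2 lie higher, and Cx3cr1 overlaps between the AM groups.

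The balance of the chains was compared as the share of each gene in their summed FPKM. C1qb took the largest share in every sample. In Tumor-macrophage the shares were 15.4% to 16.4% for C1qa, 50.5% to 50.9% for C1qb and 32.9% to 34.2% for C1qc. In Tumor-AM they were 12.1% to 13.1%, 58.3% to 63.0% and 23.9% to 28.9%, so that Tumor-AM and Tumor-macrophage did not overlap for any chain. Ctrl-AM spread more widely, from 7.33% to 17.4% for C1qa, from 54.8% to 62.1% for C1qb and from 23.1% to 37.9% for C1qc, on an estimated 12 to 166 reads per gene and sample. The smallest C1qa share and the largest C1qc share of all samples were both in Ctrl-AM 1.

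**Figure D3:**
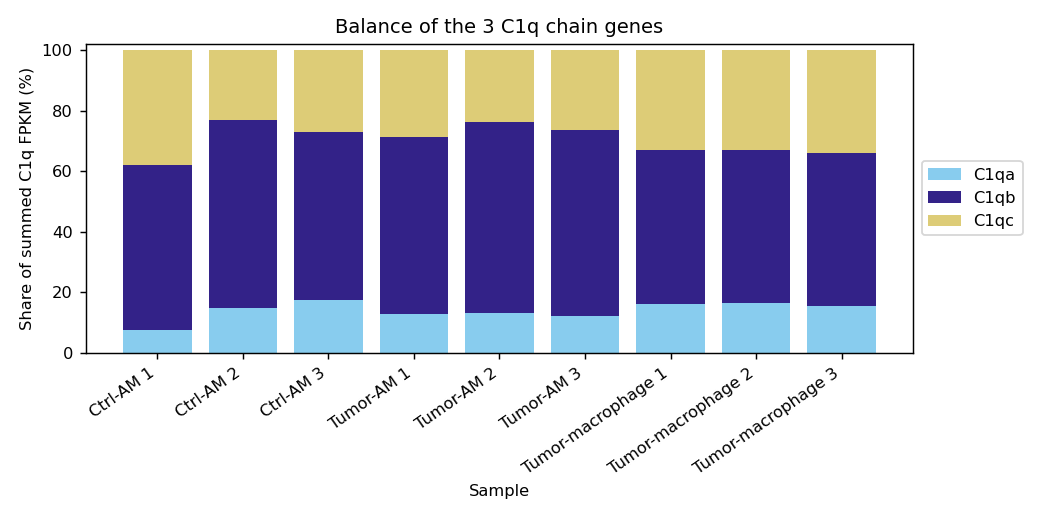
Share of C1qa, C1qb and C1qc in their summed FPKM (%) in each of the 9 samples, as stacked bars. The 3 Tumor-macrophage bars are alike, with C1qb at 50.5% to 50.9%, and the Ctrl-AM bars vary most, with C1qa from 7.33% to 17.4%.

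Of the cascade proteins, C3 and Cfb rose from Ctrl-AM to Tumor-AM and again to Tumor-macrophage, Cfp was higher in Tumor-macrophage alone, and C2 was low throughout. C3, the protein on which all pathways converge, had FPKM of 39.4, 35.7 and 36.2 in the Ctrl-AM samples, of 52.4, 46.6 and 47.8 in the Tumor-AM samples and of 197, 194 and 153 in the Tumor-macrophage samples. No group overlapped another. Tumor-AM exceeded Ctrl-AM by a ratio of 1.32 (log2 change 0.39 ± 0.102, limma adjusted p = 0.0384). This small difference was not stable. It missed the threshold with no filter, after quantile normalization, after rescaling to TPM (0.26) and without any 1 of the 6 AM samples, and over all settings the change was 0.26 to 0.43 with adjusted p from 0.0124 to 0.176. Tumor-macrophage exceeded Tumor-AM by a ratio of 3.71 (1.86 ± 0.102, limma adjusted p = 1.22e-07), and this held in all 17 other settings.

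Cfb, the protease of the alternative pathway, had FPKM of 100.2, 85.1 and 85.8 in the Ctrl-AM samples, of 173, 142 and 146 in the Tumor-AM samples and of 359, 383 and 279.6 in the Tumor-macrophage samples. Each group lay wholly above the one before. The ratio of Tumor-AM to Ctrl-AM was 1.70 (log2 change 0.76 ± 0.125, limma adjusted p = 0.00441), and that of Tumor-macrophage to Tumor-AM was 2.22 (1.14 ± 0.125, limma adjusted p = 2.63e-05). Both passed in all 17 other settings.

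Cfp, which encodes properdin, had FPKM of 179, 196 and 185 in the Ctrl-AM samples, of 230, 180 and 182 in the Tumor-AM samples and of 492, 721 and 596 in the Tumor-macrophage samples. The AM groups overlapped, and their difference of 0.07 ± 0.136 on the log2 scale (95% interval -0.232 to 0.374, limma adjusted p = 0.805) did not pass. It changed sign after rescaling to TPM and without Tumor-AM 1, the highest AM sample. Tumor-macrophage was 3.06 times Tumor-AM (1.60 ± 0.136, limma adjusted p = 3.62e-06) with no overlap.

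C2, the protease of the classical and lectin pathways, had FPKM of 0.334, 0.498 and 0.557 in the Ctrl-AM samples, of 1.24, 1.01 and 1.498 in the Tumor-AM samples and of 0.590, 2.55 and 1.87 in the Tumor-macrophage samples. These stood for an estimated 10 to 71 reads. The AM groups did not overlap, but the change of 0.62 ± 0.253 (95% interval 0.0587 to 1.18, limma adjusted p = 0.160) did not pass. Tumor-macrophage straddled Tumor-AM, and their difference was 0.17 ± 0.253 (95% interval -0.386 to 0.736, limma adjusted p = 0.599). Tumor-macrophage was higher than Ctrl-AM (0.79 ± 0.253, limma adjusted p = 0.0213). C2 reached an FPKM of 1 in 3 Tumor-AM and 2 Tumor-macrophage samples and in no Ctrl-AM sample. It thus entered the test only through the tumor groups, and its being higher there than in Ctrl-AM is partly fixed by the filter. The low value of Tumor-macrophage 1 weighed on all 3 comparisons. Without it, C2 passed between the AM groups (0.62, limma adjusted p = 0.0294) and between Tumor-macrophage and Tumor-AM (0.51, limma adjusted p = 0.0320), while without Ctrl-AM 1, Tumor-macrophage 2 or Tumor-macrophage 3 the difference from Ctrl-AM was lost (0.55 to 0.73, adjusted p = 0.0664 to 0.0798). Over all settings the adjusted p for C2 ran from 0.0275 to 0.351 between the AM groups, from 0.0320 to 0.842 for TAMs against Tumor-AM and from 3.62e-04 to 0.0798 for TAMs against Ctrl-AM.

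The receptors of the anaphylatoxins differed from each other. C3ar1, the receptor of C3a, had FPKM of 1.29, 0.767 and 1.17 in the Ctrl-AM samples, of 2.30, 2.75 and 2.98 in the Tumor-AM samples and of 172, 183 and 204 in the Tumor-macrophage samples. The groups did not overlap. Tumor-AM was 2.49 times Ctrl-AM (log2 change 0.83 ± 0.126, limma adjusted p = 0.00306), on an estimated 109 to 167 reads against 44 to 67. Tumor-macrophage was 69.7 times Tumor-AM (5.67 ± 0.126, limma adjusted p = 2.07e-10). Both held in all 17 other settings. As with C1q, the level in AMs was small beside that in TAMs, with Ctrl-AM at 0.577% and Tumor-AM at 1.43% of the Tumor-macrophage mean, and the part of TAM RNA was not tested.

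C5ar1, the receptor of C5a, had FPKM of 397, 354 and 405 in the Ctrl-AM samples, of 340, 344 and 318 in the Tumor-AM samples and of 287, 370 and 368 in the Tumor-macrophage samples. It passed in none of the 3 comparisons. The difference was -0.20 ± 0.102 on the log2 scale between Tumor-AM and Ctrl-AM (95% interval -0.431 to 0.0225, limma adjusted p = 0.253), where the values did not overlap. It was 0.02 ± 0.102 between Tumor-macrophage and Tumor-AM (95% interval -0.202 to 0.252, limma adjusted p = 0.860), and its sign changed in 5 of the 17 other settings. Against Ctrl-AM, Tumor-macrophage differed by -0.18 ± 0.102 (95% interval -0.406 to 0.0474, limma adjusted p = 0.162). After quantile normalization (-0.27, limma adjusted p = 0.0278) or rescaling to TPM (-0.42, limma adjusted p = 0.0078) C5ar1 was lower in TAMs than in control AMs, beside median changes of all genes of -0.0786 and -0.222. Over all settings that adjusted p was 0.0078 to 0.561.

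**Figure D4:**
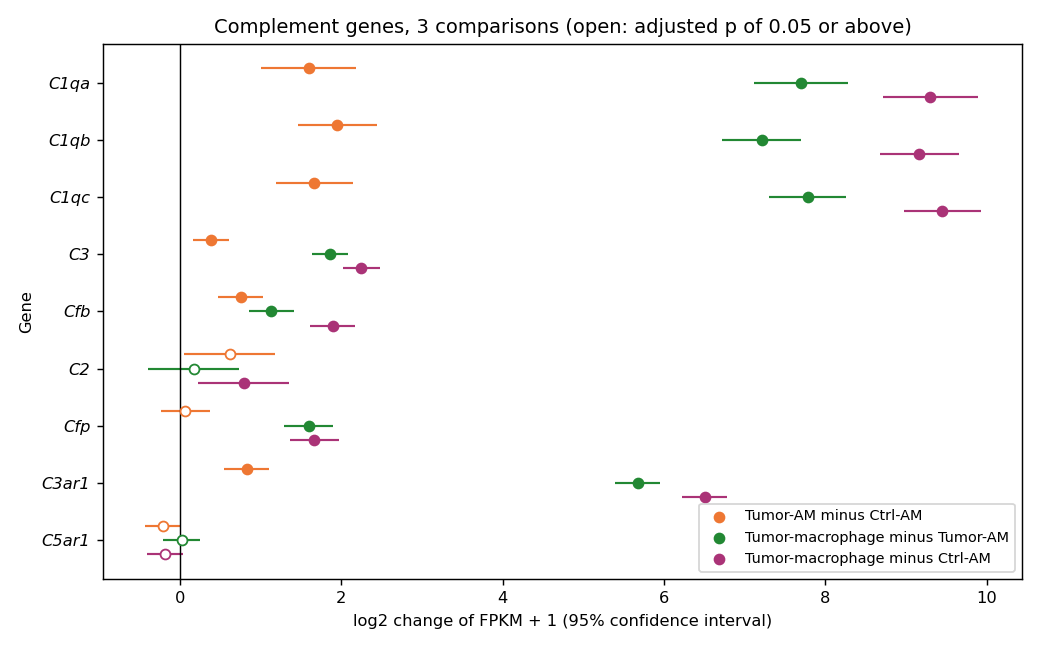
Log2 change of FPKM + 1 for each of the 9 genes in 3 comparisons, with 95% confidence intervals from limma, filled points for an adjusted p under 0.05 and open points for the others. The C1q genes and C3ar1 lie at 5.67 to 7.78 for Tumor-macrophage minus Tumor-AM, and C5ar1 lies within 0.21 of 0 in all 3 comparisons.

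Counted over the set, 6 of the 9 members were higher and 0 lower in Tumor-AM against Ctrl-AM, where 10.3% of all genes tested passed (7.11% higher and 3.18% lower). With any 1 of the 6 AM samples left out, 5 were higher, C3 being the one lost. The same held with no filter, after quantile normalization and after rescaling to TPM. The values of 8 of 9 did not overlap between these groups, against 32.3% of all genes. C2 is among these 8, and it reached the filter only through the tumor groups. Between Tumor-macrophage and Tumor-AM, 7 were higher and 0 lower, where 24.2% of all genes were higher and 24.4% lower (48.6% passed in all), and 7 did not overlap, against 55.3% of all genes. Between Tumor-macrophage and Ctrl-AM, 8 were higher and 0 lower, where 27.7% of all genes were higher and 27.1% lower (54.8% in all), and 8 did not overlap, against 62.3%. Both counts of 8 between Tumor-macrophage and Ctrl-AM include C2, with the same limit, and the counts of 7 do not. The median log2 change of the members was 0.76, 1.86 and 2.25 in these comparisons, beside medians of all genes of 0.0142, 0.00117 and -0.00824. The comparisons share groups of samples and are not independent of each other.

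The order of the members differed between the populations. In both AM groups C5ar1 was highest by mean FPKM, followed by Cfp, Cfb, C3, C1qb, C1qc, C1qa, C3ar1 and C2. In Tumor-macrophage the C1q genes came first (C1qb, C1qc, C1qa), and Cfp, C5ar1, Cfb, C3ar1, C3 and C2 followed. Neighbours whose samples overlapped were C1qa and C3ar1 in Ctrl-AM, C3 and C1qb as well as C1qc and C1qa in Tumor-AM, and C5ar1 and Cfb as well as C3ar1 and C3 in Tumor-macrophage. The 9 genes together took 0.105% to 0.124% of all FPKM in AM samples and 1.92% to 2.05% in Tumor-macrophage.

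The rest of the pathway was read from a list of 43 further complement genes, of which 18 passed the filter. Mbl1 and Mbl2, the mannose-binding lectins, Cfd, which encodes factor D, the regulators Cfi and C4bp, and C8b were listed at 0 in all 9 samples. Of 7 genes of the terminal pathway, which builds the membrane attack complex, 1 (C8g) passed the filter, and it passed the test in none of the 3 comparisons.

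Between Tumor-AM and Ctrl-AM, 4 of the 18 genes were higher and 0 lower, where 7.11% of all genes were higher and 3.18% lower, and the median log2 change of the 18 was 0.0638 beside 0.0142 over all genes. They were C1ra, a protease bound to C1q (mean FPKM 19.5 ± 3.57 against 10.1 ± 1.36, log2 change 0.88 ± 0.171, limma adjusted p = 0.0101), and 3 receptor genes. The receptor genes were Cd93, once described as a C1q receptor (1.31 ± 0.187, limma adjusted p = 0.00234), Itgam (1.26 ± 0.104, adjusted p = 1.58e-04) and Itgb2 (0.58 ± 0.0651, adjusted p = 6.43e-04), which encode the chains of complement receptor 3. All 4 calls were kept in the 17 other settings. The fibroblast marker sum moved the same way in this comparison, at 7.84 to 49.6 against 2.85 to 5.89. The part of fibroblast RNA in the change of C1ra was not tested. Itgam reached 0.796% of its Tumor-macrophage mean in Ctrl-AM and 2.85% in Tumor-AM, a gain of 2.06 points. For Cd93 the gain was 24.5 points. The part of TAM RNA in the change of Itgam or Cd93 was not tested. Of the 75-base windows of these transcripts, 42.4% of those of C1ra and 71.7% of those of Itgam are shared with other gene models, and how such reads were assigned was not stated. Cd93 had FPKM of 1.53 to 2.58 in Ctrl-AM, 5.54 to 7.87 in Tumor-AM and 14.9 to 22.1 in Tumor-macrophage, so that it rose again between Tumor-AM and Tumor-macrophage (1.35 ± 0.187, limma adjusted p = 1.47e-04).

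Of the 18 genes, 5 reached the filter only through the Tumor-macrophage samples (C1s1, Fcna, C4b, Cd55 and Cd59a), so their being higher there is partly fixed by the filter. Their levels are given as a description. The recognition molecule ficolin A (Fcna) had a mean FPKM of 15.2 ± 7.84 in Tumor-macrophage, 1.032 ± 0.362 in Tumor-AM and 0.239 ± 0.193 in Ctrl-AM. C4b, the partner of C2, was at 15.4 ± 3.45, 1.17 ± 0.729 and 0.563 ± 0.0750, and 23.5% of the 75-base windows of its transcript are shared with C4a. The membrane inhibitors Cd55 (1.80 ± 0.558 in Tumor-macrophage) and Cd59a (3.08 ± 1.49) and the protease gene C1s1 (1.59 ± 0.666) were below an FPKM of 1 in all 6 AM samples.

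Of the other 13 genes, TAMs exceeded the AMs of tumor-bearing mice in 2 and lay below them in 5, where 24.2% of all genes were higher and 24.4% lower. The genes that rose were Itgam (4.83 ± 0.104, limma adjusted p = 1.74e-10) and Cd93. The genes that fell were Cr1l, another membrane inhibitor (-0.19 ± 0.0654, limma adjusted p = 0.0345), and 4 receptor genes. C5ar2, the second receptor of C5a, went from 5.93 ± 1.37 to 2.59 ± 0.547 (-0.94 ± 0.168, limma adjusted p = 8.43e-04), while C5ar1 did not pass in that comparison. The others were Lrp1 (-0.48 ± 0.0889, adjusted p = 0.00105), which takes up many ligands and serves as a coreceptor of calreticulin, Itgb2 (-0.997 ± 0.0651, adjusted p = 4.44e-07) and Itgax (-2.20 ± 0.116, adjusted p = 9.27e-08). Of these 7 calls, that of Cr1l was the one not kept in every other setting that tested the gene. Cr1l was lost in 7 settings, among them those without Ctrl-AM 3, Tumor-AM 1, Tumor-AM 3, Tumor-macrophage 1 or Tumor-macrophage 2 (highest adjusted p 0.109).

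Itgam and Itgax encode CD11b and CD11c, by which the study describes the populations, so their difference between TAMs and AMs may not be independent of the sort. Itgam was at 134 to 156 in Tumor-macrophage, 3.61 to 4.52 in Tumor-AM and 1.10 to 1.24 in Ctrl-AM. Itgax was at 27.5 to 34.2, 123 to 159 and 123 to 148. The study describes both AM groups by the same markers. Between Tumor-macrophage and Ctrl-AM, 4 of the 13 were higher and 5 lower, where 27.7% of all genes were higher and 27.1% lower. That comparison added Calr (0.23 ± 0.0802, limma adjusted p = 0.0307), whose product calreticulin binds C1q, and C1ra (0.61 ± 0.171, limma adjusted p = 0.0118) to the genes that were higher, and Serping1, the inhibitor of C1 proteases, to those that were lower (-0.76 ± 0.209, limma adjusted p = 0.0106), while Cr1l did not pass there. Of these 9 calls, 7 were kept in every other setting that tested the gene. Calr was lost in 7 settings, changed sign after rescaling to TPM (-0.00379) and was also lost without Ctrl-AM 1, Ctrl-AM 3, Tumor-macrophage 2 or Tumor-macrophage 3. C1ra was lost after rescaling to TPM (0.40, limma adjusted p = 0.0764).

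**Figure D5:**
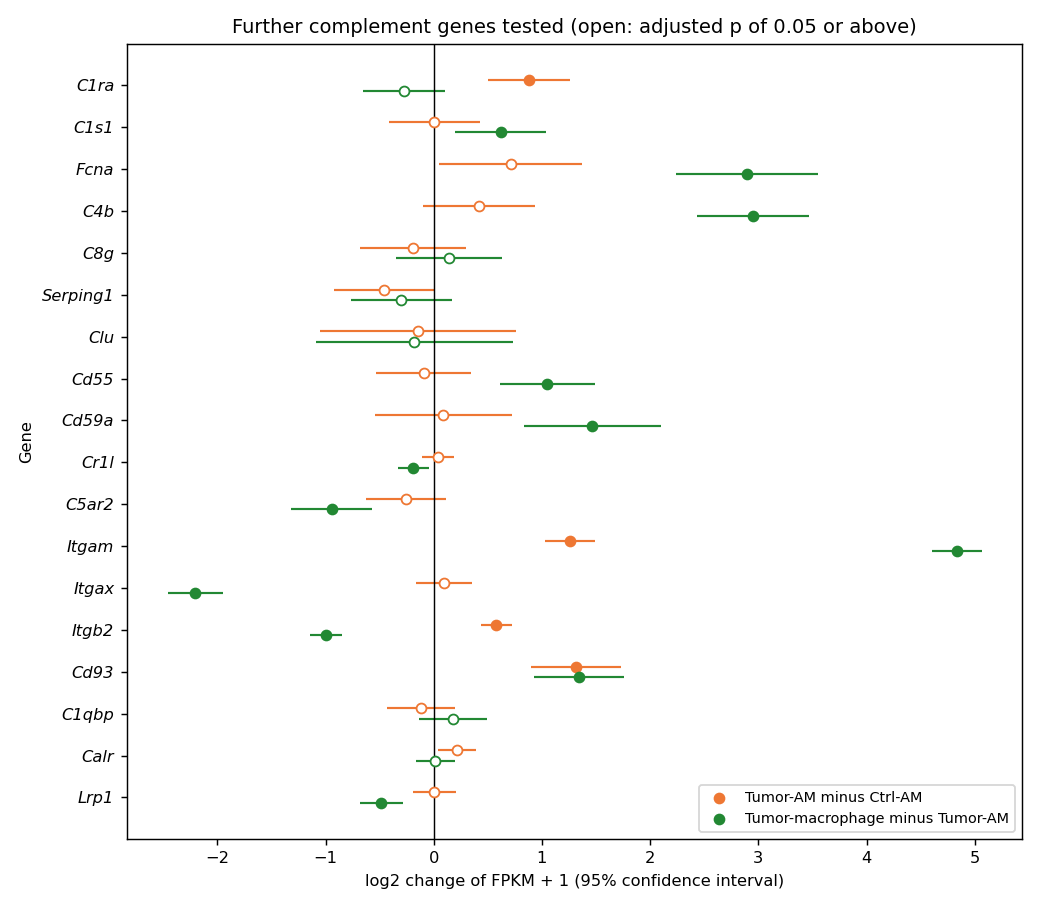
Log2 change of FPKM + 1 for the 18 further complement genes that passed the filter, in Tumor-AM minus Ctrl-AM and Tumor-macrophage minus Tumor-AM, with 95% confidence intervals from limma and filled points for an adjusted p under 0.05. Itgam, C4b and Fcna lie far to the right for Tumor-macrophage minus Tumor-AM, at 2.90 to 4.83, and Itgax lies at -2.20. Fcna, C4b, Cd55, Cd59a and C1s1 entered the test only through the Tumor-macrophage samples.

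Genes whose profile over the 9 samples was closest to a member were found by the root mean square (RMS) difference of log2(FPKM + 1), each gene centred on its own mean. The C1q chains were closest to each other, at 0.276 for C1qa and C1qb, 0.310 for C1qb and C1qc and 0.344 for C1qa and C1qc. The third gene for each was Aif1, which encodes the macrophage protein IBA1, at 0.538 to 0.624, with mean FPKM rising from 1.21 in Ctrl-AM to 3.53 in Tumor-AM and 570 in Tumor-macrophage. C3ar1 was closest to Ms4a7 (0.268), Plbd1 (0.275) and Fgl2 (0.318), with Ms4a7 at 8.94, 14.6 and 880 in the same groups. C3 was closest to Slc31a1 (0.110), which encodes a copper transporter, Fcgr1 (0.125), an Fc receptor gene, and Irf5 (0.138), a transcription factor gene. Cfb was closest to Sdc3 (0.148), H2-K1 (0.160), a class I histocompatibility gene, and Cds1 (0.162). Cfp was closest to Peak1 (0.117), 4933412E12Rik (0.131) and Zfp516 (0.139). Mean FPKM of these genes was 0.0911, 0.670 and 0.258 in Ctrl-AM and 0.175, 0.609 and 0.423 in Tumor-AM. In Tumor-macrophage it was 2.37, 4.18 and 3.29, against 603 for Cfp. C2 was closest to Ddias (0.202), Crtap (0.222) and Ldha (0.226), and C5ar1 to 2610001J05Rik (0.0551), Cgrrf1 (0.0566) and Mrpl21 (0.0650). Cds1 (0.497) and Ddias (0.271) were also under a mean FPKM of 1 in Ctrl-AM. The pseudocount of 1 shrinks changes at such low levels, so closeness to these genes is not closeness of FPKM ratios. All 9 samples share the group structure, so these are descriptions of the profiles.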

How the data were processed

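RNA of 9 samples was made into cDNA with SMART-Seq HT and into libraries with Nextera, and sequenced as single-end reads of 75 bases. Per the labels, the authors used TopHat2 2.1.1, Bowtie2 and Cuffdiff 2.2.1 on mm10, and their methods name Cufflinks for the FPKM values they deposited, 1 per gene symbol and sample. The annotation, the use of strand and the handling of multiply mapped reads are not given in the sources used here.

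Values were analysed as log2(FPKM + 1). The 10686 of 24346 genes that reached an FPKM of 1 in 3 or more samples entered a limma fit (version 3.58.1, R 4.3.3) of the 3 group means, with a trended prior variance and a spread shared by all samples. The fit was tested on simulated data. Depth was estimated from the steps of low values on transcripts of 2500 to 8000 bases, after taking 200 bases off the length. Between 69.9% and 84.4% of these values were within 0.1 of a whole read, against at most 6.85% on a shifted grid. Reads after PCR are not independent molecules, so this covers counting error only. Positions, overlaps and shared windows came from GENCODE vM21 (GRCm38). Tables and plots used Python 3.11.15, pandas 2.3.3, numpy 2.4.6 and matplotlib 3.10.9.

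The 17 other settings were a pseudocount of 0.1, no filter, a filter at an FPKM of 5, quantile normalization, rescaling to TPM, median-ratio scaling, the compared groups only, a block for the replicate number, and each of 9 samples left out. The members, gene lists and tests were chosen with earlier results of these data known. All 9 members were named. 1 gene of the wider complement list is not reported here and was left out of the list's counts. Other complement genes were named where they passed the threshold in a comparison or were listed at 0 throughout, and the 3 genes with the smallest profile difference were named for each member. The labels give 3 samples per group, and the study's methods count mice. Whether Tumor-AM and Tumor-macrophage samples came from the same mice was not stated.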

Additional observations from a re-analysis of the deposited data

How the results depend on the processing

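The direction and the calls of the C1q genes, C3ar1 and Cfb held in all 17 other settings in each of the 3 comparisons, as did those of C3 and Cfp in the comparisons with Tumor-macrophage. Of 456 values of single genes under another setting, 431 kept direction and call, 12 lost the call, 5 gained it and 8 changed sign. The sign changes were all of differences that had not passed. Cfp in Tumor-AM minus Ctrl-AM was -0.0672 after rescaling to TPM, and from -0.0452 (without Tumor-AM 1) to 0.133 (without Tumor-AM 2) when a sample was left out. C2 in Tumor-macrophage minus Tumor-AM ran from -0.0693 without Tumor-macrophage 2 to 0.51 without Tumor-macrophage 1. C5ar1 in Tumor-macrophage minus Tumor-AM was -0.0421 after quantile normalization, -0.0725 after rescaling to TPM, -0.00959 without Tumor-AM 3, -0.0376 without Tumor-macrophage 2 and -0.0329 without Tumor-macrophage 3, and with a sample left out it reached 0.145 without Tumor-macrophage 1. The cause was not tested. Of the further complement genes that passed, 4 of 4, 10 of 12 and 11 of 14 were kept in every other setting that tested them, for Tumor-AM minus Ctrl-AM, Tumor-macrophage minus Tumor-AM and Tumor-macrophage minus Ctrl-AM. A filter at an FPKM of 5 left C2 untested.

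The count of members past the threshold was 5 to 7 in Tumor-AM minus Ctrl-AM, 7 to 8 in Tumor-macrophage minus Tumor-AM and 7 to 9 in Tumor-macrophage minus Ctrl-AM, and when each sample was left out in turn it was 5 to 7, 7 to 8 and 7 to 8. For the further genes, of which 12 to 37 were tested under a setting (12 at an FPKM of 5, 37 with no filter, 15 without any 1 Tumor-macrophage sample and otherwise 18), the counts were 4 to 5, 8 to 13 and 10 to 14, and 4 to 5, 8 to 12 and 10 to 14 when each sample was left out. Correlations between samples with the same replicate number were low (r = -0.0615 to 0.159 over 9 pairs, across genes). In both other groups, 4 of 9 samples correlated best with their own number. Between Tumor-AM and Tumor-macrophage the same-numbered pairs had r of 0.026, 0.0964 and 0.109, and every other pair was at 0.00617 or below. Whether these samples share mice was not tested, and the numbers were not taken as pairs in the main fit. With the replicate number as a block, 6, 7 and 8 members and 4, 12 and 14 further genes passed, and all genes gave 658 higher and 280 lower in Tumor-AM minus Ctrl-AM. With 10 to 71 estimated reads, depth limits what can be said of C2.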

Other observations

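Genes near the complement loci were examined after the values of the members had been seen, as all listed protein-coding genes within 100000 bases. Next to the C1q cluster on chromosome 4, the receptor genes Ephb2 and Epha8 were at a mean FPKM of at most 0.00644 in every group, and Zbtb40 was at 0.770 and 0.741 in the AM groups and 0.476 in TAMs, below the filter. The C1q genes, between them, were at 2171 to 6882 in Tumor-macrophage.

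Around Cfb and C2 on chromosome 17, Nelfe, a subunit gene of the negative elongation factor, starts on the opposite strand and ends 2 bases from Cfb. Its mean FPKM of 27.9 in Ctrl-AM and 29.5 in Tumor-AM compared with 23.1 in Tumor-macrophage, and Nelfe was lower in TAMs than in Tumor-AM (-0.34, limma adjusted p = 0.0101), whereas Cfb was higher. Neu1, a lysosomal sialidase gene 32988 bases away, was also lower in TAMs than in Tumor-AM (-0.72, limma adjusted p = 4.35e-06), and the heat shock genes Hspa1a (2.25, limma adjusted p = 7.35e-06) and Hspa1b (1.65, limma adjusted p = 0.00141) were higher. These 4 calls were kept in all 17 other settings. Dxo, 17141 bases away, also passed (-0.32, limma adjusted p = 0.0393), a call lost in 10 of the 17 other settings (highest adjusted p 0.143), among them those without any 1 of the Ctrl-AM samples, without Tumor-AM 2 or 3 and without Tumor-macrophage 1 or 3. The other neighbours tested, Stk19, Skiv2l, Ehmt2 and Lsm2, did not pass in Tumor-macrophage minus Tumor-AM, where 48.6% of all genes passed. Of the neighbours tested, none passed in Tumor-AM minus Ctrl-AM, where 10.3% of all genes passed. There Neu1 had the lowest adjusted p of 0.0533 (limma), beside 0.00441 for Cfb. With so few neighbours and these shares, the counts are a description and not a result about the locus.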
